A study of Mus musculus with 2 samples.

Results

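The miR-30 family was described in the lungs of newborn mice, as 6 microRNA (miRNA) genes, Mir30a, Mir30b, Mir30c-1, Mir30c-2, Mir30d and Mir30e. They were taken by symbol from the 1973 miRNA genes of the deposited tables, and all 6 had exactly 1 row. The samples were whole lungs of mice of the strain B6NCrl on postnatal day 0, profiled by microRNA-seq of RNA under 30 bases, with no treatment or altered allele named in the labels. They form 1 group of 2 libraries, replicate 2 from the lungs of pup 3 and replicate 1 from the lungs of pup 1 of the same pregnancy, although 1 donor record is listed for both. The design holds no other tissue, age or condition, so the family was compared between its members, with other families and between the libraries. Differences between the libraries are spread between animals or preparations, which cannot be told apart here.

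A miRNA is cut from a hairpin transcript as a short strand of about the length of the arms printed below, which binds messenger RNAs and lowers their translation and stability. Pairing is led by the seed, bases 2 to 8 of the mature strand, and the miR-30 genes are grouped as a family because their 5p strands carry the same seed. Members of the family are known to be abundant in differentiated epithelia such as that of the kidney, to repress Snai1, a driver of the change from epithelial to mesenchymal cells, and to repress Dll4, a Notch ligand of sprouting endothelium.

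The mature strands are shown because they set what the members share and which of them reads can separate. Sequences came from the RefSeq table on GRCm38.p6, which matched 4 of the 6 members, Mir30a, Mir30c-1, Mir30c-2 and Mir30e, and the sequence comparisons cover those. The strands are written 5′ to 3′ with the seed in capitals, and the first line serves both Mir30c genes.
miR-30c-5p: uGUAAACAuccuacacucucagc
miR-30a-5p: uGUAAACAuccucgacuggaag
miR-30e-5p: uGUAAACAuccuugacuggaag
miR-384-5p: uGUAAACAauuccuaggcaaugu
The seed GUAAACA was found in 5 of the 1738 mature strands of the table. They came from the 4 matched members and from Mir384, a gene of the X chromosome. Mir384 was not among the 6 genes taken by symbol, and only in that sense is it counted here as outside the family. From the 5′ end, miR-30a-5p and miR-30e-5p were alike over 12 bases and differed at 1 position of 22, C13U. The strand miR-30c-5p was alike with miR-30a-5p over the same 12 bases and differed from it at 5 of 22 positions, beginning with C13A and G14C when written from miR-30a-5p to miR-30c-5p.

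The opposite strands of the hairpins fell into a pair of seed groups, shown in the same way.
miR-30a-3p: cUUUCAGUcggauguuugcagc
miR-30e-3p: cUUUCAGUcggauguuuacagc
miR-30c-1-3p: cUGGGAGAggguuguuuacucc
miR-30c-2-3p: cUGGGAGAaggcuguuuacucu
The strands of Mir30a and Mir30e differed at 1 position, G18A. Those of Mir30c-1 and Mir30c-2 differed at 3 positions, G9A, U12C and C22U, and share their seed with miR-6958-5p. The tables count reads per gene and not per strand, so the levels below sum the 5p and 3p strands of a hairpin.

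The family held a considerable part of the miRNA reads. Its 6 genes summed to 209766 of 5426081 reads on miRNA genes in replicate 2 and to 211258 of 4532902 in replicate 1. This was 3.87% of the reads in replicate 2 (exact Clopper-Pearson 95% interval 3.85% to 3.88%) and 4.66% in replicate 1 (4.64% to 4.68%), a mean of 4.26% ± 0.562 (SD, n = 2). The intervals do not overlap, but they account for counting alone, and PCR copies of a molecule are not independent. Levels are given as counts per 1000000 reads on miRNA genes (CPM), on which scale the family totalled 42632 ± 5619 CPM.

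In the counted reads the members split into 3 abundant and 3 scarce genes. Mir30a, known in human cancer cells for repressing the autophagy gene BECN1, stood highest with 15095 CPM in replicate 2 and 17853 CPM in replicate 1. It ranked 15th and 13th among all 1973 genes in these libraries. Mir30e, known in human cells for repressing the SUMO-conjugating enzyme UBC9, followed with 12325 and 15754 CPM in replicates 2 and 1. Mir30d, known from mouse pancreatic islet cells for promoting insulin gene expression, had 10838 and 12616 CPM in the same order. Together these 3 genes held 99.0% of the family's counted reads in replicate 2 and 99.2% in replicate 1. Mir30a gave 39.0% and 38.3%, Mir30e 31.9% and 33.8% and Mir30d 28.0% and 27.1%. Reads of miR-30c-5p can be missing from these counts, as described below, so its part of the family may be larger.

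The other members were lower by more than an order of magnitude. Mir30b, reported with Mir30d to repress GALNT7, a glycosylation enzyme, in human melanoma, had 321 CPM in replicate 2 and 309 CPM in replicate 1. Mir30c-2 had 54.6 and 51.6 CPM from 296 and 234 reads in replicates 2 and 1. Mir30c-1 had 25.2 and 20.7 CPM from 137 and 94 reads. These 2 genes encode the same 5p strand, which in mouse liver is known to repress the lipid transfer protein gene Mttp. All 6 members passed the minimum of 10 reads in each library, as did 308 of the 1973 genes.

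**Figure D1:**
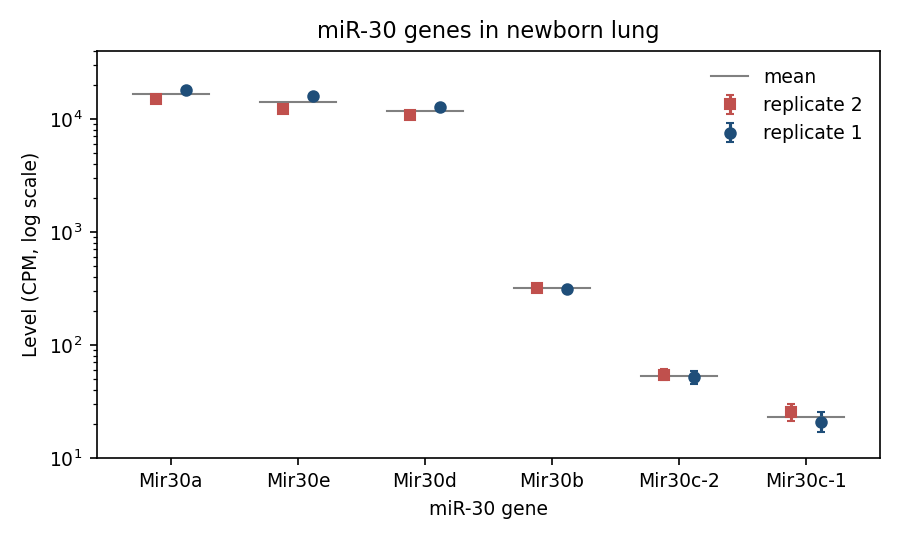
Level of each miR-30 gene (CPM, log axis) in replicate 2 (squares) and replicate 1 (circles), with exact 95% intervals for counting error as bars and the mean of the 2 libraries as a line. Mir30a, Mir30e and Mir30d lie between 10838 and 17853 CPM and the other 3 genes at or under 321 CPM.

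The order Mir30a, Mir30e, Mir30d, Mir30b, Mir30c-2 and Mir30c-1 was the same in both libraries, for all 15 pairs of members. The CPM ranges over the libraries overlapped for 2 of these pairs, Mir30a with Mir30e and Mir30e with Mir30d. Within a library the log2 ratio of Mir30a over Mir30e was 0.29 in replicate 2 and 0.18 in replicate 1, or 0.24 ± 0.079 (SD, n = 2). That of Mir30e over Mir30d was 0.19 and 0.32, or 0.25 ± 0.095, and that of Mir30a over Mir30d was 0.49 ± 0.016. Each of these ratios was larger than its SD, although 2 libraries allow no test of them. The gap in the middle of the order, Mir30d over Mir30b, was 5.21 ± 0.19 on the log2 scale.

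The seed relative outside the family was near the floor of detection. Mir384, whose 5p strand carries the seed GUAAACA, had 2 reads in replicate 2 and 1 read in replicate 1. For comparison, 3 reads, the limit that a count of 0 allows, are 0.553 CPM in replicate 2 and 0.662 CPM in replicate 1. Mir6958, which shares the 3p seed of the Mir30c genes, had 1 and 2 reads in the same order.

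The 6 genes lie as 3 pairs of neighbouring hairpins on the same strand, each with 1 abundant and 1 scarce member. On mm10, Mir30a (chr1:23272269-23272339, plus strand) lies in no other annotated gene, and Mir30c-2 (chr1:23291701-23291784) lies in an exon of the long noncoding RNA Gm27028, 19361 bases further on. Mir30d (chr15:68341208-68341289, minus strand) lies in an exon of the long noncoding RNA Gm20732, and Mir30b (chr15:68337415-68337510) follows after 3697 bases, with 16 of its bases in the exon of the noncoding transcript Gm26621. Mir30e (chr4:120772606-120772697, minus strand) and Mir30c-1 (chr4:120769534-120769622) lie 2983 bases apart in introns of Nfyc, which encodes a subunit of the CCAAT-binding factor NF-Y. In all 3 pairs the hairpin that comes first along the strand was the abundant one in the counted reads. Whether the hairpins of a pair share a transcript was not tested.

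The members of a pair differed widely in reads. Mir30e exceeded Mir30c-1 by 488-fold in replicate 2 and 760-fold in replicate 1, a log2 ratio of 9.25 ± 0.45 (SD, n = 2). Mir30a exceeded Mir30c-2 by 277-fold and 346-fold, a log2 ratio of 8.27 ± 0.23. Mir30d exceeded Mir30b by 33.8-fold and 40.8-fold, the smallest of the 3 gaps. All 3 ratios were smaller in replicate 2 than in replicate 1. No p is given for them, because with 2 libraries the smallest exact p of a sign-flip test, two-sided, is 0.5.

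**Figure D2:**
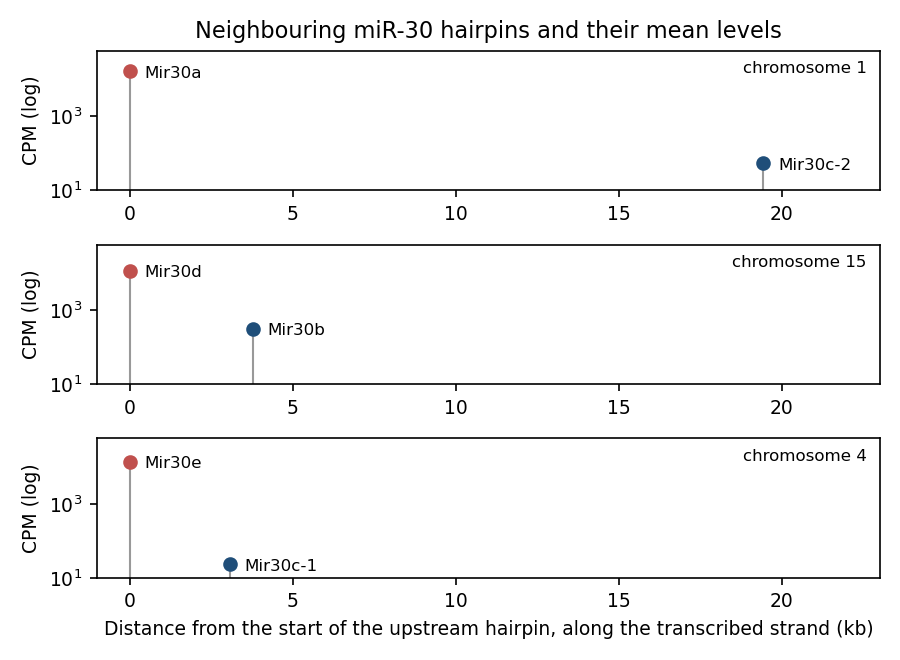
Mean level (CPM, log axis) of the miR-30 hairpins of each pair against distance along the transcribed strand from the start of the first hairpin (kb), for the pairs on chromosomes 1, 15 and 4. The first hairpin of each pair (red) stands above the second (blue), by a log2 ratio of 8.27, 5.21 and 9.25. For the Mir30c genes the counted reads can miss the 5p strand.

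For the Mir30c genes the counted reads can miss the 5p strand, and their hairpins are shown for that reason, with the longest stretch common to both in capitals.
Mir30c-1: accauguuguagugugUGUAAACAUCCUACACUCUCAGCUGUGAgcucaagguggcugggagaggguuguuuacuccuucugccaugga
Mir30c-2: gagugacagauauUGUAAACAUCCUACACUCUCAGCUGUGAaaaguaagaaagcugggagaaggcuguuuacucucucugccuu
The common stretch is 28 bases long and spans the whole 23-base strand miR-30c-5p, at bases 17 to 39 of the Mir30c-1 hairpin and 14 to 36 of the Mir30c-2 hairpin. A read of the whole strand therefore matches both genes. Reads mapped to several places, 36.7% of all reads in replicate 2 and 34.6% in replicate 1, have a row of their own in the tables, and the gene rows were read as holding reads with a single position. The levels of Mir30c-1 and Mir30c-2, and the ratios of their neighbours to them, are thus uncertain, and a count of miR-30c-5p itself cannot be had from the tables. In the reads that were counted, Mir30c-2 exceeded Mir30c-1 by 2.16-fold in replicate 2 and 2.49-fold in replicate 1.

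Mir30a and Mir30e were less exposed to this. Their hairpins share a stretch of 18 bases with each other, in the 3p strand, and no whole mature strand of either was found in another of the 1005 hairpins of the table. With any hairpin outside the family, the longest stretch shared by the 4 matched members was 11 bases. Mir30b and Mir30d had no sequence here, so stretches shared with their hairpins could not be sought.

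No read was counted on the opposite strand of any of the 6 members in either library. This was common, since 283 of the 308 genes with at least 10 reads in each library, or 91.9%, had 0 opposite-strand reads. For Mir30e it bears on Mir30f, a miRNA gene that GENCODE M21 places on the opposite strand over the same 92 bases and that has no row in the tables. At 0 reads the limit is again 0.553 CPM in replicate 2, or 0.662 CPM in replicate 1, against the 12325 and 15754 CPM of Mir30e on its own strand.

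The libraries were then compared gene by gene. The family total was lower in replicate 2, by a log2 ratio of -0.27, and this came from the abundant members, which fell by 0.24 (Mir30a), 0.35 (Mir30e) and 0.22 (Mir30d) on the log2 scale. The scarce members did not share this direction, with log2 ratios of 0.05 for Mir30b, 0.08 for Mir30c-2 and 0.28 for Mir30c-1. Their summed level was 401 CPM in replicate 2 and 382 CPM in replicate 1. Their part of the family's counted reads was thus 1.04% in replicate 2 and 0.819% in replicate 1.

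In a two-sided exact binomial test of each gene's reads against the library totals, adjusted by Benjamini-Hochberg over 375 genes, 3 of the 6 members passed the threshold of 0.05. All 3 were lower in replicate 2, with adjusted p of 2.98e-249 for Mir30a and 1.27e-145 for Mir30d in this exact test, while that of Mir30e was too small to be represented. Mir30b (adjusted p = 0.472), Mir30c-2 (0.708) and Mir30c-1 (0.267) did not pass this exact test. With TMM scaling in place of library totals Mir30b passed the exact test (log2 ratio 0.12, adjusted p = 0.0411), whereas its adjusted p lay between 0.0789 and 0.697 under the other alternatives. Among the 17 genes outside the family with a mean of at least 10000 CPM, 6 passed as lower and 8 as higher in replicate 2. Of all genes tested, 42.4% passed in either direction, 23.2% as lower and 19.2% as higher in replicate 2. The split depended on the scaling, as 45.3% of the calls were higher in replicate 2 with library totals and 62.3% with TMM. The test compares the reads of 2 libraries and allows for counting error alone, so that its p-values say nothing of a condition or of the spread between animals.

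Over all tested genes, differences of this size were common in either direction. Among genes with a mean of at least 10000 CPM, no gene outside the family fell as far as the abundant members. Of the 375 genes, 115 lay as far from an equal level as Mir30e or farther, 177 as far as Mir30a and 190 as far as Mir30d. The 375 genes include some with only 10 reads in both libraries together, where counting error alone widens the ratio. The common dispersion of edgeR with the counting error of each gene gave an SD of 0.27 for the log2 ratio of Mir30a, Mir30d and Mir30e, which Mir30e alone of these exceeded. For Mir30c-1 this SD was 0.33, more than its log2 ratio of 0.28. The common dispersion is 1 value for all 375 genes, estimated from these same libraries with the members included. It is therefore no independent measure of their spread. Of the 17 genes outside the family with a mean of at least 10000 CPM, 0 were as low as Mir30d, Mir30a or Mir30e. Their lowest log2 ratio was -0.11 and their median 0.01. Their highest was 0.26, that of Mir26b, a rise larger in size than the falls of Mir30a and Mir30d. Among the 77 genes outside the family with at least 1000 CPM, 12 were as low as Mir30d, 10 as low as Mir30a and 5 as low as Mir30e. Mir423 was the lowest of these 77 at -0.80. Under the limit of 10000 CPM but near it, Mir99b (mean 9942 CPM) had a log2 ratio of -0.23 and Mir351 (mean 8977 CPM) one of -0.43. These lay beside or under those of the abundant members. The count of 0 depends on the limit of 10000 CPM, because Mir99b, just under it, had a lower log2 ratio than Mir30d. The limit of 1000 CPM was chosen after the values were seen, and no test of the 3 genes as a set was made.

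**Figure D3:**
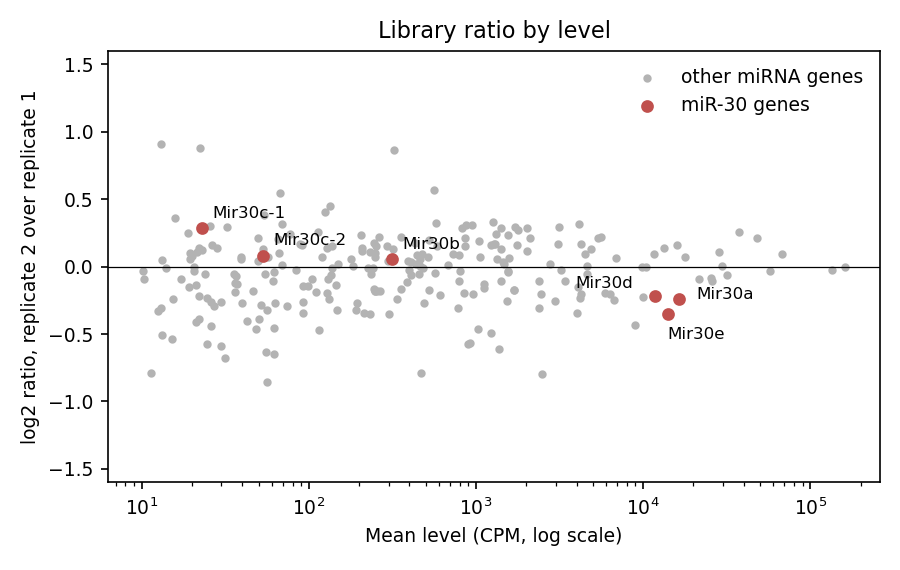
Log2 ratio of replicate 2 over replicate 1 against mean level (CPM, log axis) for the 251 tested miRNA genes with a mean of at least 10 CPM and reads in both libraries, with the miR-30 genes in red. Mir30a, Mir30e and Mir30d lie at -0.24, -0.35 and -0.22, within the range of the other genes but under all others with at least 10000 CPM. Mir30b, Mir30c-2 and Mir30c-1 lie above 0.

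The tissue label and the make-up of the libraries were checked with miRNAs known from single cell types. Endothelial Mir126a, at 160649 ± 12.4 CPM (SD, n = 2), and the epithelial list of the miR-200 family, at 30556 ± 329 CPM, were both present. Liver Mir122 stood at 49.5 ± 5.08 CPM and the striated muscle list summed to 426 ± 26.3 CPM. Of its 6 genes 3 were at 0, Mir1a-1, Mir133a-1 and Mir133a-2, but their mature strands are also encoded at other loci, so their reads may be uncounted and the sum too low. Between replicate 2 and replicate 1 the log2 ratio was 0.00 for Mir126a, -0.02 for the epithelial list, 0.01 for the list of multiciliated cells and 0.09 for that of smooth muscle and fibroblasts. It was -0.18 for the erythroid list, at 1149 CPM in replicate 2 and 1306 CPM in replicate 1, and 0.16 for the leukocyte list. These sums join genes with ratios of opposite sign. In the epithelial list Mir200b, Mir141 and Mir200a had log2 ratios of -0.21, -0.17 and -0.16, near those of Mir30a and Mir30d, while Mir429 had 0.10 and Mir200c 0.00. Among the genes of multiciliated cells, Mir34c stood at -0.23 and Mir449a at 0.07. In the erythroid list Mir451a stood at -0.57, while Mir144 and Mir486 stood at 0.87 and 0.36. Of the 5 leukocyte genes 4 were measured, as Mir142 was not found by symbol. Mir223 and Mir146 stood at 0.17 and 0.29, and Mir150 and Mir155 at -0.27 and -0.28. The part of these lists in the lower miR-30 levels of replicate 2 was not tested. In whole tissue, fewer cells of a type and less RNA per cell cannot be told apart.

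The family was last set beside 3 others whose members share a seed and are expressed in many tissues, let-7 with miR-98, miR-26 and miR-29. The miR-30 total was below that of let-7, which is known to accumulate as tissues mature, by a log2 ratio of -1.31 ± 0.28 (SD, n = 2), and above that of miR-29, which is known to repress collagen genes, by 5.67 ± 0.23. It could not be ranked against miR-26, known for repressing Ezh2, with a log2 ratio of -0.087 in replicate 2 and 0.44 in replicate 1. A stretch of 20 bases found in another hairpin of the table was held by 5 of 10 measured let-7 genes, 2 of 3 miR-26 genes and 3 of 4 miR-29 genes, whose totals may be too low. Of the 14 listed let-7 and miR-98 genes 10 were measured, so their total and shares cover those alone. No p is given for the ratios, for the reason named above.

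The share of the counted reads held by each family's highest gene was also compared. The highest miR-30 gene held 38.7% ± 0.522 of its family's reads (SD, n = 2). This share was 45.4% ± 1.94 for Mirlet7g, 99.8% ± 0.024 for Mir26b and 87.0% ± 1.68 for Mir29a. The other miR-26 and miR-29 genes all hold a stretch found in another hairpin, as do the Mir30c genes, so reads missing from them may make these shares too high. At least 10% of the family's reads came from 3 genes each in the miR-30 and let-7 families, from 2 miR-29 genes and from 1 miR-26 gene. Between the libraries the totals moved apart, with log2 ratios of replicate 2 over replicate 1 of -0.27 for miR-30, 0.12 for let-7, 0.25 for miR-26 and 0.06 for miR-29. Of 10 let-7 genes tested, 4 passed the test as higher and 4 as lower in replicate 2, beside 0 and 3 of 6 miR-30 genes. Over all 375 genes tested, 19.2% passed as higher and 23.2% as lower. The difference between families was not tested.

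**Figure D4:**
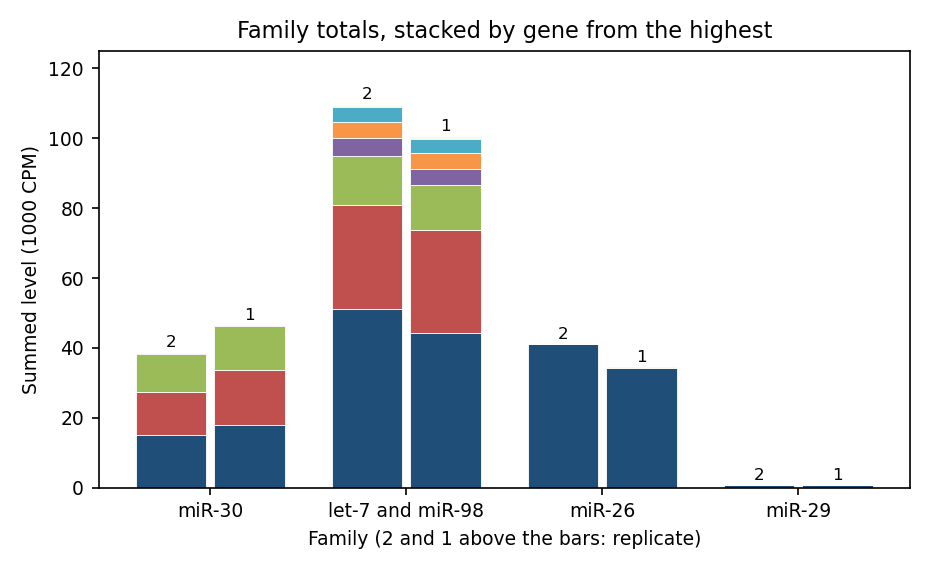
Summed level of each family (in 1000 CPM) in replicate 2 (left bars) and replicate 1 (right bars), stacked by gene with the highest at the bottom. The miR-30 bars hold 3 visible parts of similar height, the miR-26 bars are almost all Mir26b, and the miR-29 bars are near 0 on this scale; the scarce genes of each family are too thin to see.

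The genes closest in level over the 2 libraries, by Euclidean distance of log2(CPM + 1), were found for each member. Mir449a and Mir10a were closest to Mir30a, at distances of 0.27 and 0.29, Mirlet7d and Mir10a to Mir30e at 0.36 and 0.45, and Mir429 and Mir22 to Mir30d at 0.22 and 0.29. Mir30b was closest to Mir134 and Mir208b, at 0.06 and 0.10. Mir30c-2 was closest to Mir137 and Mir125b-1, at 0.04 and 0.11, and Mir30c-1 to Mir450-1 and Mir493, at 0.11 and 0.13. With 2 libraries, likeness here means a like level and nothing about joint variation.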

How the data were processed

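MicroRNA-seq was available for 2 lung libraries. The authors deposited 1 table of whole-number counts per library, on mm10 with GENCODE M4 per the file headers in the accompanying text. For the aligner, counting program and filters, nothing was given in the sources used here. Each gene row holds reads on either strand and on each strand singly. The either-strand column is the sum of the others, and the larger of these, with 98.0% and 98.2% of the reads in replicates 2 and 1, was taken as the gene's own strand. Totals and tests left out 4 rows without a gene, which hold unmapped reads, reads mapped to several places, reads on no feature and ambiguous reads, 47.8% of all reads in replicate 2 and 45.2% in replicate 1. A chi-square of 75.2 for each degree of freedom over the genes exceeded sampling noise, and the libraries were counted singly.

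Computed here were CPM and exact Clopper-Pearson intervals. For 375 genes with at least 10 reads in both libraries together, an exact binomial test with Benjamini-Hochberg adjustment was run (scipy 1.17.1). The test was checked on counts simulated with sampling noise alone, so the check does not cover the excess over that noise found here. With 1 library on each side, edgeR's quasi-likelihood test was not run. TMM factors and the common dispersion came from edgeR 4.0.16 and size factors from DESeq2 1.42.0. Symbols and positions came from GENCODE M21, on the assembly GRCm38 that mm10 names, which matched 1894 of 1973 identifiers, and sequences from RefSeq.

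Named genes are the members, their seed relatives, the 2 genes closest in level to each member, the highest gene of each compared family and the cell type markers. The members and lists were chosen with earlier results of these data known. Mir99b, Mir351 and Mir423 were named after their values were seen.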

Additional observations from a re-analysis of the deposited data

How the results depend on the processing

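The alternatives comprised reads on either strand, other denominators, scalings, minimum reads and pseudocounts, removal of genes with a shared stretch, and leaving out each library. Of 120 alternative values, 110 kept their direction and their side of the threshold or moved by less than the spread between the libraries. Part of this count was fixed in advance and is no sign of robustness. With 2 libraries, leaving out a library moves a mean by less than the SD. Members without opposite-strand reads keep their family shares and pair ratios on either strand. A changed minimum of reads leaves every log2 ratio as it was. The family total of 42632 CPM became 22855 per 1000000 of all reads and 50792 CPM without Mir126a, by the construction of these denominators. The log2 ratio of the miR-30 total over miR-26 ran from -0.087 to 0.44 when each library was left out, and thus changed sign without replicate 1. Mir30b passed the exact test between libraries with TMM scaling (log2 ratio 0.12, adjusted p 0.0411), which adds 0.07 to every log2 ratio, and not with the other alternatives. The library comparison has no value with a library left out. No paired analysis was possible because the libraries form 1 group. The depth of Mir30c-1, 137 and 94 reads in replicates 2 and 1, limits what can be said of its difference between libraries.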
